A study of Mus musculus with 6 samples.

Results

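Early meiotic spermatocytes are the germ cells that have entered meiosis and are breaking, pairing and joining their chromosomes. In this droplet single-cell RNA-seq study of the testis of ICR mice, an outbred stock, 215 of 54253 deposited cell barcodes were taken as such cells. A barcode was a member if mitochondrial transcripts gave at most 20% of its unique molecular identifiers (UMIs, each marking 1 captured RNA molecule), if it held at least 4000 UMIs, and if 6 recombination genes (Prdm9, Meiob, Dmc1, Rad51ap2, Gm960 and Mei4) together gave at least 4 UMIs from at least 2 of them. Their sum also had to equal or exceed that of 8 spermatogonial genes (Uchl1, Crabp1, Sohlh1, Dmrt1, Sall4, Rhox13, Gfra1 and Zbtb16). In addition, 5 genes of later spermatocytes (Ccna1, Pou5f2, Piwil1, Tbpl1 and Aurka), whose sum is called the late sum here, had to stay under 20 UMIs. Members were thus chosen by these measured counts, and the levels of the rule genes are a description and carry no test.

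The smoking group gave 3 libraries and the control group 3. Per the labels, smoking mice were exposed for 12 weeks, in daily sessions of 30 minutes with 15 cigarettes, each with 1.1 mg nicotine and 11 mg tar, at 3.47 mg/m3 of smoke particles. Control mice sat in a chamber free of smoke. All mice were bought at 6 weeks and adapted for 1 week before the 12 weeks, a schedule that an age label of 8 weeks does not match. The left testis was dissociated, dead cells were depleted and 10x 3′ libraries were made. Each group had 7 mice, and the labels do not say which mouse or mice a library came from, so p-values here cover the spread between libraries, which may be technical. The members numbered 30, 37 and 41 in smoking libraries 1 to 3, against 30, 29 and 48 in control libraries 1 to 3.

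In early meiotic prophase SPO11 cuts DNA at sites that the histone methyltransferase PRDM9 has marked, and the recombinase DMC1 leads the broken ends to the homologous chromosome. SYCP2 and SYCP3 form the lateral elements of the synaptonemal complex, SYCP1 bridges them, and crossovers mature between the paired axes. In male mice the X and Y chromosomes are transcribed at the start of prophase and are shut off from the pachytene stage, when they lie in the sex body.

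The promoters of Hfm1, Msh5 and Prdm9 are shown first, because the genes they serve are among those that set the members apart and because they hold the motif CNCCTCAG, known as the binding motif of STRA8 and MEIOSIN, the pair of transcription factors that turns on the meiotic programme. Prdm9 belongs to the rule, and Hfm1, a crossover helicase, and Msh5, which stabilises crossover intermediates, are among the 15 leading genes described further on. The stretches come from RefSeq on GRCm38.p6, read 5′ to 3′ on the strand of the gene, with the 8 motif bases in capitals and 40 bases on each side. The promoters of Hfm1 and Prdm9 each held 2 matches, of which the more upstream is marked. All 3 genes lie on the minus strand. The Hfm1 stretch is chr5:106925909-106925996, with the motif on the opposite strand from position -66 relative to the start. The Msh5 stretch is chr17:35046657-35046744, with the motif on the opposite strand from position -82. The Prdm9 stretch is chr17:15564348-15564435, with the motif on the same strand from position -41.
Hfm1: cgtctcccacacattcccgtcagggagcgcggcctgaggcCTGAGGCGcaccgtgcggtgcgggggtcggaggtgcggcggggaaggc
Msh5: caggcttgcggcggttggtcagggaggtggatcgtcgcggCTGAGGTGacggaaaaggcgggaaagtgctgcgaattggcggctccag
Prdm9: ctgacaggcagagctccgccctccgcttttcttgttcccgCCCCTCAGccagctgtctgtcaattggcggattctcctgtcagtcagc

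The motif was searched on both strands from 250 bases before to 50 bases after each start. It occurred in 5 of 18 promoters (27.8%) of the rule genes and leading genes, of which 17 of 21 matched the table, and in 7.94% of all 32851 promoters. The other genes with a match were Sycp1 and H2-D1. Among the 8 synaptonemal complex genes, 4 of 10 promoters held it, those of Sycp1, Syce2, Tex12 and 4930447C04Rik. The motif GGCGGGA, known for E2F6, occurred in 5 of the 18 promoters and in 11.3% of all promoters. The palindrome TCACGTGA, an E-box, occurred in 0 of the 18 and in 0.974% of all. These are letter matches and were not tested as binding sites.

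The libraries held 55751481, 65728120 and 78455606 UMIs in the smoking group, against 40675108, 39607204 and 54915594 in the control group. The members' summed UMIs were 430354, 565991 and 612941 in smoking libraries, against 402519, 318197 and 644789 in control libraries. A member had a median of 10738 UMIs, between 4273 and 50679. A doublet caller marked 2 members. Across libraries 365 barcode sequences recurred, none of them between members of different libraries. Summed over all barcodes, every pair of libraries differed beyond counting error, with a chi-square per degree of freedom between 10.3, for smoking library 1 and control library 3, and 114. Results on the members were therefore also computed without control library 3.

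The members carried the transcripts of the synaptonemal complex at far higher levels than neighbouring germ cells. They were set beside 468 spermatogonial barcodes, chosen with at least 4 UMIs of the 8 spermatogonial genes, and 923 later spermatocyte barcodes with a late sum of at least 20, under the same limits on depth and mitochondrial share. The groups were not matched for depth. Library medians ran from 41677.5 to 60526 UMIs in later spermatocyte barcodes and from 10598 to 15008.5 in spermatogonial ones, against 9270 to 12352 in members. Levels are CPM, counts scaled to the same total of UMIs for the summed members of each library. Sycp3 was at 3537, 3113 and 2845 CPM in smoking libraries, against 3229.7, 3074 and 3142 CPM in control libraries. Sycp1 was at 2679, 2357 and 2527 CPM in smoking libraries, against 2435, 2300.5 and 2512 CPM in control libraries. Over the 6 libraries Sycp3 averaged 3157 ± 226 CPM in members (SD, n = 6), against 235 CPM in spermatogonial and 326 CPM in later spermatocyte barcodes. Neither gene is part of the rule, and every library of members lay above every library of the other groups for both.

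**Figure D1:**
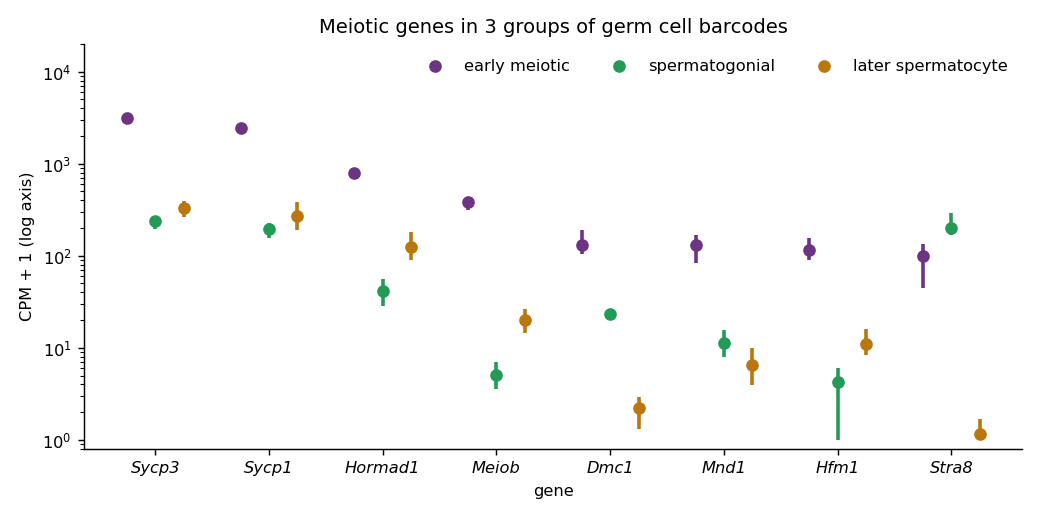
Levels of 8 meiotic genes (horizontal axis) in early meiotic, spermatogonial and later spermatocyte barcodes, as CPM + 1 on a log axis. Points are means over 6 libraries and lines run from the lowest to the highest library. Of the genes, 7 were highest in early meiotic barcodes, while Stra8 averaged 99.3 CPM there and 200.3 CPM in spermatogonial barcodes. Meiob and Dmc1 belong to the rule, and Sycp3, Sycp1, Mnd1 and Hfm1 are leading genes, ranked for being higher in members, so their order is description only.

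Each of the 215 members had at least 1 Sycp3 UMI, with a median of 32 and between 1 and 221, and each had at least 1 Sycp1 UMI. As a level of free RNA, 123 of 511 barcodes with macrophage markers (24.1%) had a Sycp3 UMI, at a median of 4756 UMIs a barcode. After thinning to 4000 UMIs, Sycp3 was seen in all 215 members and in 41 of 299 macrophage barcodes (13.7%). The elongating spermatid gene Prm1, a protamine of sperm chromatin, had UMIs in every member and every macrophage barcode. It stood at 6550, 8426 and 10874 CPM in members of smoking libraries and at 6196, 9158 and 7452 CPM in those of control libraries, against a mean of 36483 CPM in macrophage barcodes. Prm1 in the members is therefore read as background, because it lies below the level in cells that should lack it.

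Markers of somatic cell types and of spermatogonia were low. The 10 macrophage markers summed to between 1.63 and 7.07 CPM in members of smoking libraries and between 4.65 and 12.6 CPM in those of control libraries, with C1qa and Csf1r at 0. The 8 Leydig cell markers summed to between 16.3 and 30.0 CPM in smoking and between 17.4 and 24.8 CPM in control libraries, with Hsd3b6 and Lhcgr at 0. The 12 Sertoli cell markers summed to a mean of 373 CPM, with Fshr at 0, and their mean was 1809 CPM in spermatogonial barcodes. The 15 spermatogonial markers, 8 of which the rule used, summed to a mean of 242 CPM in members against 1646 CPM in spermatogonial barcodes. Markers of later germ cells were present. The 11 pachytene markers, 5 of which the rule used, summed to a mean of 2552 CPM in members, 2469 CPM in spermatogonial and 9210 CPM in later spermatocyte barcodes. Round spermatid markers summed to a mean of 483 CPM in members and 1448 CPM in macrophage barcodes, and elongating spermatid markers to 24096 and 101560 CPM. Of the 6 marker genes of the label 4 belong to the rule and say nothing on it, and Sycp1 and Sycp3, the other two, were high as given above.

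The 6 rule genes were unequal. Meiob, which binds single-stranded DNA at recombination sites, averaged 381 ± 39.6 CPM, Rad51ap2 310 ± 34.7 CPM and Dmc1 130 ± 32.6 CPM (SD, n = 6). Prdm9 averaged 58.0 ± 12.8 CPM and Gm960, which RefSeq also names Top6bl, 19.8 ± 6.48 CPM. Mei4, which acts with SPO11, averaged 3.52 ± 2.78 CPM, below its 7.35 CPM in spermatogonial barcodes. The 54 members just inside the threshold, with 4 or 5 UMIs of the rule sum, had Sycp3 at 2236 CPM, and the 22 barcodes just outside, with 3, had 1641 CPM. The 8 members with a late sum of 15 to 19 had Sycp3 at 3401 CPM, and the 14 barcodes just outside, with 20 to 24, had 2835 CPM. The 10 members less than 1000 UMIs above the depth limit had Sycp3 at 2386 CPM, and the 8 barcodes up to 1000 UMIs below it had 2033 CPM. Sycp3 was thus high on both sides of these limits. It was lower beyond the limits on spermatogonial genes and on mitochondrial share. The 23 barcodes that failed only because the spermatogonial sum was larger had Sycp3 at 546 CPM. The 5 that failed only on mitochondrial share had 1103 CPM.

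The 15 leading genes were ranked by the smaller of their log2 folds over the 2 other groups, outside the rule, with at least 50 CPM in members. They describe the choice and are not tested. Ccdc152 led, at 122 CPM in members, 5.94 CPM in spermatogonial and 3.74 CPM in later spermatocyte barcodes. Its annotated position (chr15:3280070-3303526, minus strand, GRCm38) overlaps the end of Selenop on the other strand, so reads of the pair may be mixed. Mnd1, which helps DMC1 invade the homologue, was at 129 CPM in members, 10.3 CPM in spermatogonial and 5.46 CPM in later spermatocyte barcodes. Hfm1 was at 115 CPM in members, 3.25 CPM in spermatogonial and 10.1 CPM in later spermatocyte barcodes, and Msh5 at 68.1 CPM in members, 5.96 CPM in spermatogonial and 6.72 CPM in later spermatocyte barcodes. These genes were picked for being higher than in both neighbours. The X-linked cyclin gene Ccnb3 was at 83.0 CPM in members, 6.72 CPM in spermatogonial and 0.0980 CPM in later spermatocyte barcodes.

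Leading genes with other roles were abundant too. Hspa5, the chaperone of the endoplasmic reticulum, was at 2680.4 CPM in members, 359 CPM in spermatogonial and 191 CPM in later spermatocyte barcodes. Tex101, a germ cell surface protein, was at 2181 CPM in members, 216 CPM in spermatogonial and 267 CPM in later spermatocyte barcodes. Hist1h2ba, a testis variant of histone H2B, was at 165 CPM in members, 18.9 CPM in spermatogonial and 9.49 CPM in later spermatocyte barcodes. Both groups of neighbours thus held far less of these transcripts. The class I antigen gene H2-D1 was at 226 CPM in members, 21.7 CPM in spermatogonial and 4.12 CPM in later spermatocyte barcodes, and at 801 CPM in macrophage barcodes. Mdk, a heparin-binding growth factor, was at 105 CPM in members, 10.2 CPM in spermatogonial and 3.06 CPM in later spermatocyte barcodes. Iqcb1, which encodes a ciliary protein, Sycp3, Sycp1, the transcription factor gene Pbx3 and Tcp11l2 completed the 15. All 15 were above both other groups in each of the 6 libraries.

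Lists of genes were also compared between members and both other groups. The share of all genes above both groups was not computed, so the counts below describe the lists and do not set them apart from other genes. Of 8 synaptonemal complex genes, 7 had a higher mean in members than in both other groups, and the list summed to 8719 CPM in members, 1373 CPM in spermatogonial and 2134 CPM in later spermatocyte barcodes. The exception was Syce1, a central element protein, at 255 CPM in members and 526 CPM in later spermatocytes. Of 20 crossover genes 15 were above both, of 14 genes of the chromosome axis and cohesin 10, and of 20 genes of sex chromosome silencing and damage signalling 14. Of 33 genes of DNA replication 10 were above both, and that list summed to 2028 CPM in members, 2745 CPM in spermatogonial and 1075 CPM in later spermatocyte barcodes. Mitochondrially encoded transcripts summed to 67492 CPM in members, 58618 CPM in spermatogonial and 13287 CPM in later spermatocyte barcodes, and 12 of 13 were above both.

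Within the members, the X-linked share of UMIs varied widely. It ran from 0.0816% to 2.83%, with 64 cells under 0.5%, 34 from 0.5% to 1%, 18 from 1% to 1.5%, 42 from 1.5% to 2% and 57 at 2% or more. The range from 1% to 1.5% held the fewest, and 15 cells were within 0.9% to 1.1%. In spermatogonial barcodes the median was at least 1.67% in each of the 6 libraries. In later spermatocyte barcodes they were 0.897%, 0.855% and 0.970% in the smoking group, against 0.246%, 0.176% and 0.728% in the control group.

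**Figure D2:**
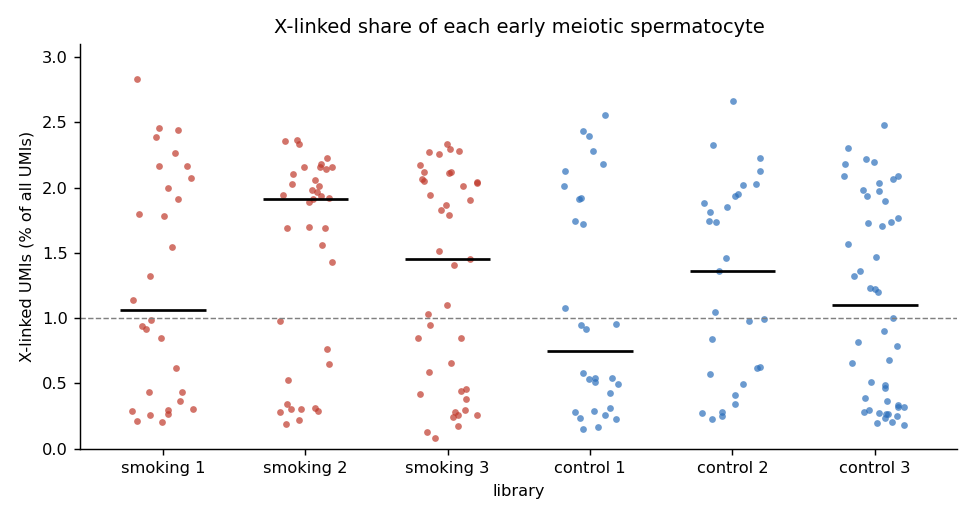
X-linked UMIs as a percentage of all UMIs (vertical axis) for each of the 215 early meiotic spermatocytes, by library. Black bars are library medians and the dashed line marks 1%; each library held cells on both sides of it, 44 of 108 under it in the smoking group and 54 of 107 in the control group.

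The cells were split at 1%, a value chosen after the shares were seen that does not lie in an empty gap, so what follows describes ranges and not cell types: 98 cells under 1%, called low-X cells here, and 117 cells from 1% up, called high-X cells. The median depth was 14083.5 UMIs in low-X and 8981 UMIs in high-X cells. Pooled, X-linked genes gave 0.410% of UMIs in low-X and 1.97% in high-X cells. Of 148 X-linked genes with at least 20 CPM, 148 were lower in low-X cells, 123 by more than 2-fold and 68 by more than 10-fold, and 126 were lower in all 6 libraries. These X-linked values follow from the split. The Y chromosome, which the split did not use, gave 0.0175% of UMIs in low-X and 0.0976% in high-X cells, a ratio of 0.179, lower in all 6 libraries. For single autosomes the ratio lay between 0.801, on chromosome 16, which holds Prm1 and Prm2, and 1.18, on chromosome 15.

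**Figure D3:**
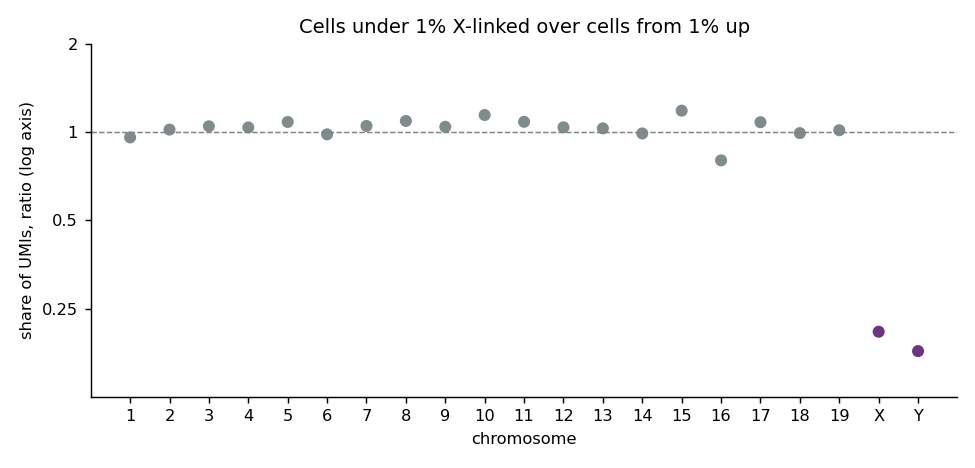
Ratio of each chromosome's share of UMIs in low-X early meiotic spermatocytes (under 1% X-linked) to that in high-X ones (vertical log axis), by chromosome. The X (0.208) and Y (0.179) lie apart from the autosomes, which sit between 0.801 and 1.18; the X ratio follows from the split.

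Single X-linked genes differed widely in how far low-X cells lay below high-X cells. Usp26, a testis deubiquitinase, was at 6.69 CPM in low-X and 421 CPM in high-X cells. Taf7l, a germ cell relative of a general transcription factor, was at 16.4 CPM in low-X and 569 CPM in high-X cells, Fmr1, an RNA-binding protein gene, at 45.6 CPM in low-X and 526 CPM in high-X cells and Scml2, a Polycomb protein gene of the germ line, at 31.0 CPM in low-X and 486 CPM in high-X cells. Tex11, a crossover protein gene, was at 6.69 CPM in low-X and 101 CPM in high-X cells. A smaller difference was seen for Ndufa1, a subunit of respiratory complex I, at 489 CPM in low-X and 700.0 CPM in high-X cells, and for Prdx4, a peroxiredoxin of the secretory pathway, at 246 CPM in low-X and 388 CPM in high-X cells. Akap4, a fibrous sheath gene of spermatids, was at 145 CPM in low-X and 261 CPM in high-X cells, with 601 CPM in macrophage barcodes, above both.

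Autosomal genes of break formation were lower in low-X cells, while the meiotic entry list was split. Of 8 meiotic entry genes 2 were higher and 2 lower in 6 of 6 libraries. Dazl, an RNA-binding protein gene of germ cells, was higher, at 2233 CPM in low-X and 1509 CPM in high-X cells, as was Sohlh2, a transcription factor gene, at 76.7 CPM in low-X and 33.0 CPM in high-X cells. Stra8, which starts the meiotic programme, was at 0.609 CPM in low-X and 219 CPM in high-X cells, and the highest library of low-X cells, at 2.68 CPM, lay below the lowest library of high-X cells, at 128 CPM. Prdm9 was at 7.91 CPM in low-X and 122 CPM in high-X cells. Hells, a chromatin remodeller that works with PRDM9, was at 85.8 CPM in low-X and 805 CPM in high-X cells, and Zcwpw1, a reader of PRDM9 marks, at 90.1 CPM in low-X and 578 CPM in high-X cells. All 7 autosomal genes of the break formation list with at least 20 CPM were lower in 6 of 6 libraries, where 20.6% of 6636 autosomal genes were. The list was not tested, and Prdm9 belongs to the rule. Tex15, which is needed for break repair, was at 46.2 CPM in low-X and 901 CPM in high-X cells, Brca2, which acts in break repair, at 63.3 CPM in low-X and 489.7 CPM in high-X cells, and the checkpoint kinase gene Atm at 3.04 CPM in low-X and 105 CPM in high-X cells. The replication ligase gene Lig1 was at 6.09 CPM in low-X and 198 CPM in high-X cells.

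A second set was higher in low-X cells. Across autosomal genes 17.8% were higher in 6 of 6 libraries. Hormad1, an axis protein that is removed where chromosomes have joined, was at 1047 CPM in low-X and 469 CPM in high-X cells. H2afx, the histone variant of damaged chromatin and of the sex body, was at 543 CPM in low-X and 137 CPM in high-X cells, and Mnd1 at 204 CPM in low-X and 40.6 CPM in high-X cells. Gnas, a G protein subunit gene, was at 519 CPM in low-X and 43.6 CPM in high-X cells, Psma8, the spermatocyte proteasome subunit, at 325 CPM in low-X and 57.8 CPM in high-X cells and Rsph1, a radial spoke gene, at 1556 CPM in low-X and 327 CPM in high-X cells. Hspa2, the spermatocyte heat shock protein gene, was at 1039 CPM in low-X and 342 CPM in high-X cells. Of 18 piRNA pathway genes 11 were higher in 6 of 6 libraries and 1 was lower. Mov10l1, the helicase of piRNA production, was at 992 CPM in low-X and 404 CPM in high-X cells, and Piwil1, a rule gene, at 139 CPM in low-X and 28.5 CPM in high-X cells. Of 84 nuclear genes of oxidative phosphorylation 49 were higher in 6 of 6 libraries and 2 were lower, and of 83 ribosomal protein genes 33 and 9.

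Of 8 structural genes of the synaptonemal complex 2 were higher and 3 lower in 6 of 6 libraries. Sycp2 was at 966 CPM in low-X and 896 CPM in high-X cells, Tex12 at 281 CPM in low-X and 310.2 CPM in high-X cells and Sycp1 at 2778 CPM in low-X and 2104 CPM in high-X cells. Sycp3 was at 3795 CPM in low-X and 2325 CPM in high-X cells and Syce3 at 699.8 CPM in low-X and 478 CPM in high-X cells, higher in 6 of 6 libraries for both. Syce2, at 302 CPM in low-X and 723 CPM in high-X cells, and 4930447C04Rik, which RefSeq also names Six6os1, at 387 CPM in low-X and 739.8 CPM in high-X cells, were lower in 6 of 6, as was Syce1, at 214 CPM in low-X and 303 CPM in high-X cells. Among genes of sex chromosome silencing, Mdc1 and Topbp1, which spread and activate damage signalling over the sex chromosomes, were close. Mdc1 was at 219.7 CPM in low-X and 220.1 CPM in high-X cells and Topbp1 at 265 CPM in low-X and 292 CPM in high-X cells. Rad51ap2, a rule gene, was at 313 CPM in low-X and 314 CPM in high-X cells, Dmc1 at 83.4 CPM in low-X and 195 CPM in high-X cells and Meiob at 456 CPM in low-X and 277 CPM in high-X cells. All 14 autosomal genes of the list of abundant spermatid transcripts were lower in 6 of 6 libraries, Prm1 at 6018 CPM in low-X and 10948 CPM in high-X cells, with the depths of the cells differing as given above. The part of depth and of free RNA in these differences was not tested.

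**Figure D4:**
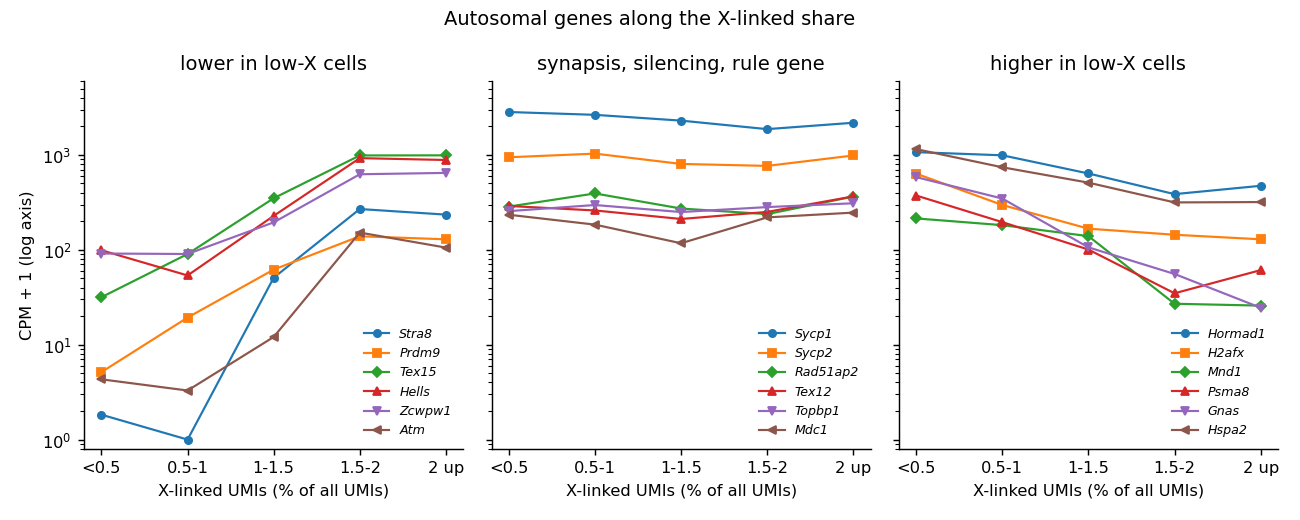
CPM + 1 (log axis) of 18 autosomal genes in 5 ranges of the X-linked share, from 64 cells under 0.5% to 57 cells at 2% or more, summed over libraries. Stra8 was at 0.829 CPM under 0.5% and 234 CPM at 2% or more, Sycp2 at 942 and 984 CPM, and Gnas at 582 and 23.5 CPM.

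The late sum ran along the same range. Members with a late sum of 0 or 1, of 2 to 4, of 5 to 9 and of 10 to 19 numbered 31, 80, 66 and 38, and their median X-linked shares were 1.81%, 1.71%, 0.817% and 0.339%. The share of cells under 1% was 19.4%, 32.5%, 54.5% and 78.9%. Median UMIs grew from bin to bin too, at 7659, 7813.5, 14389.5 and 22719, and the sum is a count, so depth and stage cannot be told apart in these bins. Over the 215 cells Spearman's rho of the X-linked share with the late sum was -0.437, and -0.215 after thinning to 4000 UMIs; the cells share libraries and rho has no test here. The sign was the same in each library, between -0.517 and -0.217. Stra8 stood at 193, 178, 98.3 and 1.13 CPM over the 4 bins, Gadd45b, a stress-response gene, at 118, 55.8, 56.6 and 9.07 CPM. Gnas stood at 60.7, 169, 341 and 456 CPM and Cyct, the testis cytochrome c, at 32.1, 72.2, 142 and 238 CPM.

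The next comparison asked whether smoke exposure went with a different number or composition of early meiotic spermatocytes. Members made up 0.361%, 0.423% and 0.436% of barcodes under the mitochondrial limit in smoking libraries, against 0.362%, 0.337% and 0.570% in control libraries. The 95% Wilson intervals of single libraries, which cover counting error only, ran from 0.253% to 0.590% in the smoking group and from 0.235% to 0.755% in the control group. The difference of the means was -0.0165 percentage points (exact two-sided permutation p = 0.9, n = 3 each, smallest possible p 0.1). Its sign turned when single libraries were left out, to 0.0569 without control library 3 and 0.00631 without smoking library 1.

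Among barcodes with at least 4000 UMIs, members made up 1.51%, 1.52% and 1.41% in smoking libraries, against 1.92%, 1.69% and 2.16% in control libraries, with no overlap. The means were 1.48% ± 0.0635 in smoking and 1.92% ± 0.236 in control libraries (SD, n = 3 each, exact p = 0.1, adjusted p = 0.6 over 18 measures of the members). The denominators differed, at 1984, 2431 and 2913 such barcodes in smoking and 1564, 1714 and 2219 in control libraries. Their part in the difference of the shares was not tested. After thinning to 4000 UMIs the difference was -0.191 percentage points, against -0.444 without thinning (exact p = 0.2 and 0.1). For 100 later spermatocyte barcodes there were 17.3, 26.1 and 16.0 members in smoking libraries, against 29.4, 39.2 and 27.4 in control libraries, again with no overlap (exact p = 0.1, adjusted p = 0.6). Later spermatocyte barcodes were chosen by a count that grows with depth, and the part of depth in this ratio was not tested. For 100 spermatogonial barcodes there were 44.1, 40.2 and 65.1 members in smoking libraries, against 32.3, 37.7 and 64.0 in control libraries (exact p = 0.5). With a smallest possible p of 0.1, none of the 18 measures could pass a threshold of 0.05, and some of them are sums that the rule truncates. The test therefore cannot decide whether the groups differ in them.

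The composition of the members overlapped between the groups on the X-linked measures. The median X-linked share was 1.06%, 1.92% and 1.45% in smoking libraries, against 0.7495%, 1.36% and 1.10% in control libraries (exact p = 0.3). Cells under 1% made up 15 of 30, 12 of 37 and 17 of 41 in smoking libraries, against 18 of 30, 13 of 29 and 23 of 48 in control libraries (exact p = 0.3). The mean late sum of members thinned to 4000 UMIs was 1.43, 1.46 and 1.27 in smoking libraries, against 2.37, 1.55 and 1.94 in control libraries, without overlap. The rule truncates this sum, so it is given with no test. Smoking library 2 had the highest X-linked median and control library 1 the lowest. Median UMIs were 9512, 11070 and 12352 in smoking libraries, against 12139, 10050 and 9270 in control libraries (exact p = 0.7).

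No gene differed between smoking and control members at the threshold. In edgeR's quasi-likelihood test on summed counts, 0 of 6826 genes (0.0%) had a Benjamini-Hochberg adjusted p under 0.05, and 254 (3.72%) had an unadjusted p under 0.05. DESeq2 called 0 with 66 unadjusted, and limma-voom 0 with 283. Without control library 3 edgeR called 0, with 217 unadjusted. The 3 smoking libraries lay above all control libraries for 272 genes (3.98%) and below them for 374 (5.48%). The median standard error of a log2 fold was 0.251, and for 2200 genes with at least 100 CPM the median 95% interval reached 0.357 to either side. Differences of that size and below could not be resolved with 3 libraries a group. The interval is for a single gene and is not adjusted for the number of genes tested, so larger differences could also go uncalled. Dnah8, at a log2 fold of -1.12, and Hist1h1e, at 1.00, were not called.

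The synapsis genes Sycp3 and Sycp1 had folds near 0. The recombination genes named here belong to the rule, so their folds are given as values only. The log2 fold of smoking over control was 0.02 for Sycp3 (95% interval -0.23 to 0.28), 0.08 for Sycp1 (-0.18 to 0.33) and -0.10 for Meiob (-0.41 to 0.20). For Dmc1 the libraries stood at 105, 191 and 140.3 CPM in the smoking group, against 104, 119 and 121 CPM in the control group, a log2 fold of 0.36 (-0.05 to 0.78). Prdm9 stood at 48.8, 83.0 and 52.2 CPM in smoking libraries, against 59.6, 50.3 and 54.3 CPM in control libraries, a log2 fold of 0.19 (-0.34 to 0.71). Rad51ap2 had a log2 fold of 0.20 (-0.12 to 0.51). Stra8 stood at 44.1, 125 and 91.4 CPM in smoking libraries, against 132, 116 and 86.9 CPM in control libraries, a log2 fold of -0.27 (-0.78 to 0.24). All 7 overlapped between the groups. Sycp3, Sycp1 and Stra8, which are outside the rule, had an edgeR adjusted p = 0.997, and the 4 rule genes are given with no test. The intervals of Sycp3, Sycp1 and Stra8 left out a 2-fold difference in either direction. Gm960 and Mei4 were too low to be tested.

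The smallest adjusted p belonged to Dnah8, an axonemal dynein heavy chain gene of the sperm tail (chr17:30624354-30877365, plus strand, GRCm38). It stood at 218, 157 and 126 CPM in smoking libraries, against 189, 453 and 437 CPM in control libraries. Control library 1 lay within the range of the smoking libraries, and both other controls were above all of them. The log2 fold was -1.12 (SE 0.23, 95% interval -1.58 to -0.66, edgeR adjusted p = 0.192). Without control library 1 or smoking library 1 the gene was called (edgeR adjusted p = 0.000996 and 0.0234); over 19 alternatives the adjusted p ran from 8.55e-07 to 0.999. Dnah8 was less abundant in members, at a mean of 263 CPM, than in later spermatocytes, at 945 CPM, and in macrophage barcodes, which should lack it, at 373 CPM. Macrophage barcodes held fewer UMIs, at a median of 4756 against 10738 in members, so their CPM need not match the background in members. Whether Dnah8 in members lies above background was not tested. In the same libraries the macrophage barcodes had 377, 94.4 and 135 CPM in the smoking group, against 233, 969 and 431 CPM in the control group, and the part of free RNA in the fold was not tested. The log2 fold was -1.05 in spermatogonial and -1.09 in later spermatocyte barcodes. The noncoding gene 1700097N02Rik, which overlaps the start of Dnah8 on the other strand, had a log2 fold of -0.96 (adjusted p = 0.808), and reads of the pair may be mixed.

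Other genes with small p-values are given as values, since none passed. They were picked for a small p, so a lack of overlap describes the choice. Tdrd9, a helicase of the piRNA pathway that silences transposons, stood at 53.4, 58.3 and 45.7 CPM in smoking libraries, against 99.4, 78.6 and 109 CPM in control libraries. All smoking libraries lay below all controls, with a log2 fold of -0.88 (-1.35 to -0.41, adjusted p = 0.701), and macrophage barcodes held 6.73 CPM. Sfi1, a centriole protein gene, stood at 51.1, 37.1 and 52.2 CPM in smoking libraries, against 79.5, 116 and 83.7 CPM in control libraries. Mrs2, a mitochondrial magnesium channel gene, stood at 13.9, 10.6 and 19.6 CPM in smoking libraries, against 27.3, 69.1 and 40.3 CPM in control libraries. Neither gene overlapped between the groups, and their log2 folds were -0.95 and -1.52 (adjusted p = 0.701 for both). In later spermatocyte barcodes Tdrd9, Sfi1 and Mrs2 were also lower in every smoking library than in every control library. Mrs2 stood there at 1.46, 1.93 and 22.3 CPM in smoking libraries, against 23.8, 43.8 and 49.2 CPM in control libraries. In spermatogonial barcodes Tdrd9, Sfi1 and Mrs2 each overlapped between the groups. Macrophage barcodes averaged 6.78 CPM of Sfi1. They held Mrs2 at 7.77, 5.52 and 19.7 CPM in smoking libraries, against 25.7, 34.5 and 24.9 CPM in control libraries, again with no overlap, and the part of free RNA in the Mrs2 fold was not tested.

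Of the 5 positive folds with the smallest p, 4 showed no overlap, where 3.98% of all genes lay above all controls. These genes were picked for a small p, so their lack of overlap describes the choice. Pet2, an X-linked gene that RefSeq now names Dcaf8l, stood at 135, 180.2 and 165 CPM in smoking libraries, against 107, 107 and 85.3 CPM in control libraries, a log2 fold of 0.73 (0.34 to 1.12, adjusted p = 0.701). It was at 12.2 CPM in low-X and 280.1 CPM in high-X cells, and the low-X cells made up a mean of 41.3% of smoking and 50.9% of control members. With every library weighted to the same mix of low-X and high-X cells, a setting chosen after seeing the data, its log2 fold was 0.43. The part of the mix in the Pet2 fold was not tested. Ing3, a chromatin reader gene, had a log2 fold of 1.29, Mettl22, a methyltransferase gene, 1.44 and Ms4a14, a testis gene, 1.46, with adjusted p between 0.808 and 0.974. Macrophage barcodes averaged 88.4 CPM of Ms4a14 and 30.0 CPM of Mettl22, above the means of 24.4 and 25.9 CPM in members. The part of free RNA in the levels of both genes was not tested. Ing3 averaged 17.6 CPM in macrophage barcodes and 27.0 CPM in members. The linker histone gene Hist1h1e stood at 105, 251 and 140.3 CPM in smoking libraries, against 109, 101 and 55.8 CPM in control libraries, with overlap and a log2 fold of 1.00 (adjusted p = 0.701). Hist1h1e was at 41.4 CPM in low-X and 238 CPM in high-X cells. Without smoking library 1 it was called (edgeR adjusted p = 0.0464), and over 19 alternatives the adjusted p ran from 0.00486 to 1.00.

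**Figure D5:**
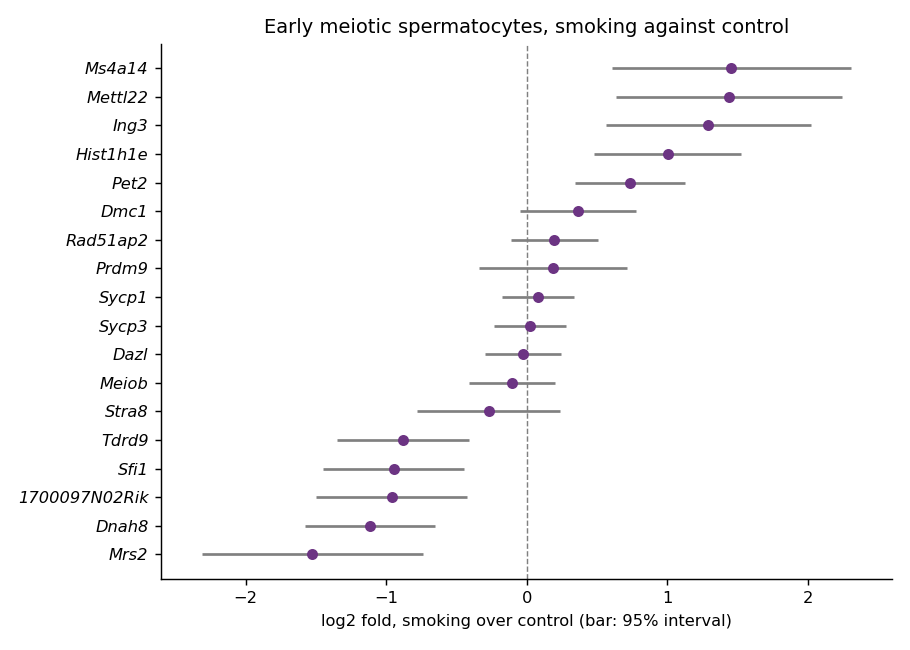
Log2 folds of smoking over control in early meiotic spermatocytes with 95% intervals (horizontal axis), for the 10 genes with the smallest p-values in both directions and 8 genes of recombination, synapsis and meiotic entry (vertical axis). None had an edgeR adjusted p under 0.05, the smallest being 0.192 for Dnah8.

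No member of any list passed the test, with single log2 folds between -0.88 for Tdrd9 and 0.99 for Taf9b, a gene of the transcription factor list. Of 8 synaptonemal complex genes 8 had positive folds, with a median log2 fold of 0.10, between 0.02 and 0.33, against a median of 0.00 over all genes tested, of which 3430 were positive and 3396 negative. The upper value was that of 4930447C04Rik, at 472, 677 and 622 CPM in smoking libraries, against 427, 487 and 507 CPM in control libraries (log2 fold 0.33, 0.03 to 0.64, adjusted p = 0.997). Of 6 tested genes of break formation 5 were positive (median 0.27), of 26 of strand exchange 14 (median 0.04) and of 15 of crossover formation 8 (median 0.18). The lists of break formation and strand exchange include rule genes, among them Prdm9, Meiob and Dmc1, so their counts are description only. Rad50, part of the complex that trims broken ends, stood at 139, 147 and 124 CPM in smoking libraries, against 94.4, 104 and 101 CPM in control libraries, without overlap (log2 fold 0.47, adjusted p = 0.997). Mlh3, which resolves crossovers, stood at 27.9, 33.6 and 57.1 CPM in smoking libraries, against 57.1, 62.9 and 63.6 CPM in control libraries (log2 fold -0.58, adjusted p = 0.997).

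The piRNA list leaned the other way. Of 18 tested genes 14 had negative folds, with a median of -0.22, and 5 lay below all controls without overlap, where 5.48% of all genes did. The 14 include the rule gene Piwil1, and the counts are description only. Piwil1, a PIWI protein gene and part of the rule, stood at 67.4, 72.4 and 73.4 CPM in smoking libraries, against 161, 72.3 and 97.7 CPM in control libraries (log2 fold -0.62, given with no test). Mael, another gene of the pathway, ran the other way, at 521, 528 and 486 CPM in smoking libraries, against 455, 424 and 448 CPM in control libraries (log2 fold 0.22, adjusted p = 0.997). Of 17 heat shock genes 14 were negative (median -0.06). Hspa2 stood at 648, 631 and 661 CPM in smoking libraries, against 966, 713 and 786 CPM in control libraries, without overlap (log2 fold -0.33, adjusted p = 0.997). Hsf5, a heat shock factor gene of spermatocytes, stood at 125, 120.1 and 114 CPM in smoking libraries, against 171, 195 and 146 CPM in control libraries (log2 fold -0.47, adjusted p = 0.997). Most of the piRNA genes, Hspa2 and Hsf5 were higher in low-X cells, which made up a mean of 41.3% of smoking and 50.9% of control members. The groups overlapped in this mix of low-X and high-X cells (exact permutation p = 0.3). With this mix made equal in every library, the log2 fold was -0.15 for Hspa2, -0.30 for Hsf5, -0.35 for Piwil1 and -0.74 for Tdrd9. That setting was chosen after seeing the data, and the part of the mix in these folds was not tested.

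Genes tied to smoke and stress gave little signal. Of 28 genes of the smoke and oxidative stress list 10 could be tested, 9 with positive folds and a median of 0.07. The dioxin receptor target Cyp1a1 was at 0, 1.77 and 1.63 CPM in smoking libraries and at 0 in all 3 control libraries, at or under the floor of 3 UMIs a library. Txn1, thioredoxin, stood at 53.4, 35.3 and 31.0 CPM in smoking libraries, against 29.8, 31.4 and 23.3 CPM in control libraries (log2 fold 0.52, adjusted p = 0.997). Of 6 tested genes of p53 and apoptosis 3 were positive. Trp53 itself stood at 32.5, 17.7 and 31.0 CPM in smoking libraries, against 27.3, 6.29 and 12.4 CPM in control libraries (log2 fold 0.80, -0.09 to 1.69, adjusted p = 0.997). Of 15 spermatid transcripts 14 were positive (median 0.20), and Prm1 had a log2 fold of 0.20 (-0.11 to 0.51). As given above, Prm1 in the members is read as background.

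Npm1, the nucleolar chaperone gene, stood at 1025, 984 and 889 CPM in smoking libraries, against 795, 849 and 896 CPM in control libraries, with overlap at control library 3 and a log2 fold of 0.20 (adjusted p = 0.997). Malat1, a nuclear noncoding RNA, stood below all controls, with a log2 fold of -0.22 (adjusted p = 0.997). The smoking effect was also compared between the members and their neighbours in the same libraries. Against later spermatocytes 0 of 6716 genes differed in effect, with 351 at an unadjusted p under 0.05, and against spermatogonial barcodes 0 of 6643, with 256 (limma on within-library differences). No difference in the smoking effect between early meiotic spermatocytes and either neighbour was therefore detectable in these 6 libraries.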

How the data were processed

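The deposited files hold raw UMI counts of 30905 genes in barcodes that had been called as cells. Cell Ranger 3.1.0 is named per the file headers; per the submitters' processing notes the tools were Cell Ranger 7.1.0 and CASAVA 1.8, with build mm10. The sources used here do not settle which version applies, or whether counting used strand. The members and gene lists were chosen with earlier results of these data known. Members' counts were summed per library and tested with edgeR 4.0.16 (TMM, filterByExpr, quasi-likelihood, Benjamini-Hochberg over all genes tested), with DESeq2 1.42.0 and limma 3.58.1 as alternatives, in R 4.3.3. The smoking effect was compared between cell groups with limma, on differences of log2 CPM within a library and a prior count of 1. For library measures, exact two-sided permutation tests enumerated the 20 assignments. Doublets were scored with scanpy 1.11.5 and kept. The X-linked share leaves out the rule genes, and X-linked classes are compared as pooled sums. Fits were tested on simulated data.

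Genes are named by rule: the rule genes with Sycp1 and Sycp3; where fewer than 3 genes pass the threshold, the 5 positive and 5 negative folds with the smallest p among genes from 20 CPM; up to 4 genes a list, the 2 most abundant and the 2 with the smallest p; 15 leading genes; genes along the late sum; and Npm1 and Malat1. Genes in the X-linked comparison outside these sets, and Cyp1a1, were chosen after their values were seen. Zfp820 had too few UMIs for a test. Alternatives covered depth, rule thresholds, doublets, scaling, filters and leaving out each library. Positions are from GENCODE M21 on GRCm38.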

Additional observations from a re-analysis of the deposited data

How the results depend on the processing

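The difference in the share of early meiotic spermatocytes, -0.0165 percentage points, changed sign with a floor of 6000 UMIs (0.0076) and after thinning to 4000 UMIs (0.00133), and lay between -0.0595 and 0.0569 with single libraries left out. The difference in median UMIs then lay between -195 and 1318 (-117 without control library 3). The count of called genes, 0, became 6 with no filter on low counts, 1 after thinning, 3 among cells under 1% X-linked, and 0 to 3 with single libraries left out. Dnah8 was called in 5 settings (log2 fold between -1.41 and -0.90 over 19 alternatives, adjusted p 8.55e-07 to 0.999), among them without control library 1 and without smoking library 1. Other calls were Hist1h1e, 1700097N02Rik, Gm8251, Hist1h4d, Gm16222, Gm42418, Hist1h2ba and 4930463O16Rik, each in 1 or 2 settings; Gm16222 had UMIs in 1 library only. In cells from 1% X-linked up, log2 folds changed sign for Prdm9 (-0.282), Meiob (0.146) and Npm1 (-0.0422). So did Prdm9 with X-linked classes matched (-0.207), Stra8 with a rule sum of at least 6 (0.259) and Rad50 in cells under 1% (-0.0837). With single libraries left out, the log2 fold ranged from -0.0658 to 0.0996 for Sycp3, from -0.0835 to 0.309 for Prdm9, from -0.221 to 0.00444 for Meiob and from -0.592 to 0.00454 for Stra8. The cause of these changes was not tested. The alternatives by X-linked share were chosen after seeing the data. No paired analysis was possible because the replicate numbers were given in accession order and the labels carry none. With 29 to 48 cells a library, depth limits genes under 100 CPM most.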
